A study of Mus musculus with 8 samples.

Results

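The genes that encode the proteins of the cytosolic ribosome were followed as a set. Membership was set by name, with no measured value used: protein-coding genes of the GENCODE M21 annotation whose symbol is Rpl or Rps followed by a digit, together with Rplp0, Rplp1, Rplp2 and Rpsa, and without the Rps6k and Rps19bp1 symbols, whose products are not part of the ribosome. This gave 91 of 21951 protein-coding genes. A gene was counted as contacted when an anchor, which is one end of a listed chromatin loop, lay within 2 kb of one of its annotated transcription starts. Of the 91 genes, 61 had such an anchor. They had 68 of the 30542 anchors and 1344 of the 249200 distinct loops of the study.

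The loops came from Hi-ChIP, which reads contacts between distant DNA fragments where a chosen protein is bound. It was run for FOXA1, a forkhead factor, and for HNF4G, a nuclear receptor, in a cell line from a primary tumor of the KPC mouse, an engineered model of pancreatic cancer, and in the matched line from a liver metastasis (liver mets). Each of the 4 groups had 2 replicates of untreated cells labelled as wild type, grown in DMEM with serum, and the labels did not say whether the replicates were separate cultures. Each group had 1 deposited loop list that held both replicates, so no spread between replicates could be calculated, no test between groups was run, and sequencing depth is unknown. All intervals below are 95% intervals that cover counting error only, and they take each loop as independent, which loops at a common anchor are not. One line was used per site, so a difference between liver mets and tumor cannot be told apart from a difference between these particular lines. Where 4 values are given in a row below, they stand for FOXA1 in liver mets and in tumor and then for HNF4G in liver mets and in tumor, called the list order. The files hold contacts and no expression, so the pancreatic identity of the cells could not be checked from them.

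Ribosomal proteins assemble with ribosomal RNA into a large and a small subunit. The small subunit decodes the message, the large subunit joins amino acids, and the acidic P proteins form a stalk on the large subunit that recruits elongation factors. In growing cells these genes are among the most heavily transcribed, their products are needed in near-equal amounts, and their messages typically begin with an unbroken run of C and T, the terminal oligopyrimidine motif, through which translation answers to growth signals. Many of them carry small nucleolar RNAs (snoRNAs) in their introns.

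Promoter sequences are shown for genes with the most loops and for genes with no anchor, because the factors immunoprecipitated have known binding motifs and because the start of a ribosomal protein message has a recognisable form. They were taken from RefSeq on GRCm38.p6, the assembly named mm10, in which 65 of the 91 genes had an entry. Each runs 5′ to 3′ on the strand of the gene, from 150 bases before the start to 20 after it. Capitals mark CCGGAAG, the core of the ETS and GABP motif, on either strand, or an unbroken run of 5 or more C and T that covers the start. The first 4 belong to genes with many loops: Rps18 at chr17:33955646-33955815 on the minus strand, Rpl14 at chr9:120571367-120571536, Rpl10a at chr17:28328415-28328584 and Rpl18 at chr7:45717921-45718090, all on the plus strand. All 4 stretches lie inside an anchor. The last 3 belong to genes with no anchor: Rps7 at chr12:28635934-28636103 on the minus strand, Rpl4 at chr9:64173237-64173406 and Rpl22 at chr4:152325576-152325745, both on the plus strand. Runs are marked at the RefSeq start. At the most upstream GENCODE start the run of C and T was 14 bases at Rpl4 and 0 at Rps18 and Rpl14. The marking of runs thus depends on the start chosen.
Rps18: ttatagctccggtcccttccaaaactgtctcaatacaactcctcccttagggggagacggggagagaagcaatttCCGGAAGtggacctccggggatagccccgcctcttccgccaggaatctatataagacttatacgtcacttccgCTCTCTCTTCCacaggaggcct
Rpl14: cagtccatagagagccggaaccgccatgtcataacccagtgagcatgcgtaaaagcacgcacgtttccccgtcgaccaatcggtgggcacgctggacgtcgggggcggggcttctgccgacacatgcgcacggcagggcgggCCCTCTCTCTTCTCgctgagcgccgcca
Rpl10a: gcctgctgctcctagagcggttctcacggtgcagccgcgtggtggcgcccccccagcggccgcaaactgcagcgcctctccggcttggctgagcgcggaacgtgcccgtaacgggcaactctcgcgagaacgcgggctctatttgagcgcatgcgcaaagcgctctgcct
Rpl18: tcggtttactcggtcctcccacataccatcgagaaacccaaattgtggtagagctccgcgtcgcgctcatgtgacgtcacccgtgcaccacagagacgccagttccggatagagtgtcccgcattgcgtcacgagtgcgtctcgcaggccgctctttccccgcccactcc
Rps7: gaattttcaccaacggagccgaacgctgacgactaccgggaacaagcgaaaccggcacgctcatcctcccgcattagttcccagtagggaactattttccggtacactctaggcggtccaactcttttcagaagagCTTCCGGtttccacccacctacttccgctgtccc
Rpl4: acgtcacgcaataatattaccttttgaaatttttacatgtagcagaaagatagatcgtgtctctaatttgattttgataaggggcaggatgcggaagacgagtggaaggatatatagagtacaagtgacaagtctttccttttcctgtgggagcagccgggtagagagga
Rpl22: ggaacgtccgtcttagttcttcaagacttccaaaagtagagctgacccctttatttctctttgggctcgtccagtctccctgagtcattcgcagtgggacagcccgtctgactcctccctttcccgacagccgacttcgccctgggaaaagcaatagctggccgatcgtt

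Neither TGTTTAC, the forkhead core, nor CAAAGTC, an HNF4 core, was a common feature of these promoters. Both strands of 300 bases around the most upstream annotated start, 250 before to 50 after, were searched. TGTTTAC was in 1 of the 91 promoters (1.10%), that of Rpl41, against 3.05% of 21938 coding promoters. CAAAGTC was in 4 (4.40%, against 4.05%), those of Rpl6, Rpl11, Rpl15 and Rpl22l1. All 5 of these genes had an anchor. These 4 with CAAAGTC were at the low end of loop numbers, with 8 at Rpl6, 14 at Rpl11, 3 at Rpl15 and 7 at Rpl22l1 summed over the lists. CCGGAAG was more frequent, in 23 of 91 promoters (25.3%, Wilson interval 17.5 to 35.1), against 10.8% of all coding promoters and 15.7% of those with an anchor. It was in 18 of the 61 members with an anchor (29.5%) and in 5 of the 30 without (16.7%), and the intervals of these shares, 19.6 to 41.9 and 7.34 to 33.6, overlapped. AAGATGG, the YY1 core, was in 12.1% of members and 6.22% of all coding promoters, and TATAAA was in 9.89% and 12.6%. None of these 5 strings is contained in another. A match describes letters in this window and is not a site of binding.

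A run of C and T over the start was found in a minority of members. At the most upstream GENCODE start, a run of 5 or more covered the start in 15 of 91 members (16.5%), and in 9.93% of all coding genes. At any RefSeq start, a choice added after the GENCODE values were seen, it was found in 21 of 65 members (32.3%, Wilson interval 22.2 to 44.4) and in 10.3% of 16522 coding genes. The annotation, the number of starts per gene and the genes covered all differ between these counts. The run was present alike with and without an anchor, in 16.4% and 16.7% of members at the GENCODE start. Over whole anchors, TGTTTAC occurred 0.131 times per kb at ribosomal protein promoters, 0.143 at other coding promoters and 0.204 in anchors with no coding start. The same densities for CAAAGTC were 0.141, 0.155 and 0.173 per kb. Median GC content in the 300 bases was 56.3% in members with an anchor and 51.0% in members without.

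Ribosomal protein genes were contacted more often than the average coding gene, and so were 3 of 4 related gene lists. An anchor was present at 61 of 91 members (67.0%, Wilson interval 56.9 to 75.8), where the background over all coding genes was 49.2% and the share in the 21860 other coding genes was 49.1% (48.5 to 49.8). The large subunit had 37 of 54 genes with an anchor, the P stalk 3 of 3 and the small subunit 21 of 34. Leaving out 14 genes whose symbols mark them as pseudogene-like or as paralogs, the share was 57 of 77 (74.0%). With only anchors that held no other coding start, the share of members was 45.1% (35.2 to 55.3), and other genes were not filtered in this way. Genes with no shared anchor numbered 37 of the 91 members and 7749 of the 21860 other coding genes, so the excess rested largely on shared anchors. Proteins of the mitochondrial ribosome, which are encoded by a separate set of nuclear genes, had an anchor in 58 of 78 (74.4%), a ribosome biogenesis list in 14 of 19 and a list of translation factors in 15 of 15. Of 3 ribosome parts outside the naming rule, 1 had an anchor. Whether these shares follow the transcription of the genes was not tested, since no expression was analysed here.

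Where an anchor was present, the number of loops was spread widely around a middle that did not clearly differ from that of other genes. Summed over the 4 lists, the 61 members had a median of 29.0 loops (interval of the median 17 to 36, quartiles 13 and 52, highest 157), and other coding genes with an anchor had a median of 23.0 (11 and 45, highest 537). Among genes whose anchors held no other coding start the order was reversed, at 16.0 and 22.0. In list order, the member medians were 9, 7, 5 and 6, against 7, 6, 5 and 5 in other genes. Between 41 and 80 loops lay 17.6% of all 91 members and 9.14% of the other coding genes, and at 81 or more 4.40% and 4.86%. The members thus had fewer genes at 0 and more in the middle of the range, with a similar share at the top. The translation factors with an anchor had a median of 18.0 loops, and the mitochondrial ribosomal proteins and the biogenesis genes both had 22.0. Their highest genes exceeded every member, with 242 loops at Mrpl14, 188 at Eef2, which moves the ribosome along the message, and 168 at Ubtf, a factor of ribosomal RNA transcription. Among ribosomal parts outside the naming rule, Fau had 78 loops and Rack1 had none.

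**Figure D1:**
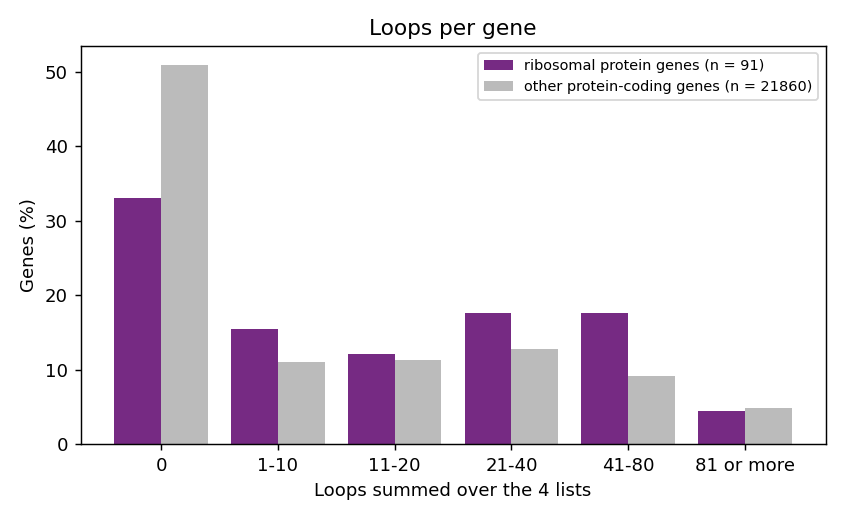
Percent of genes (y axis) by loops summed over the 4 lists (x axis, ranges of loop number) for the 91 ribosomal protein genes and the 21860 other protein-coding genes. Members were less often at 0 loops (33.0% against 50.9%) and more often at 41 to 80 (17.6% against 9.14%).

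Among large subunit genes, Rpl3, whose protein lies close to the centre where peptide bonds form, had the most loops. With FOXA1 it had 53 loops in liver mets and 38 in tumor, and with HNF4G it had 33 in each line. These fell on a pair of anchors on chromosome 15, the first at 80088260 to 80092313 over the most upstream start, which also holds the start of the synaptic vesicle gene Syngr1, and the second at 80082600 to 80084323 beside an internal start of Rpl3. The anchors had 100 and 61 loops, so both contributed. Rpl10a, a protein of the mobile L1 stalk, had 37, 33, 20 and 19 loops in list order, all from 1 anchor of 9.07 kb at chr17:28324521-28333593 that also covers a start of the Hippo pathway factor Tead3. Rpl18 had 23, 29, 22 and 17 loops from 1 anchor of 11.5 kb at chr7:45712153-45723696, shared with Fam83e and the sphingosine kinase gene Sphk2. Rpl14 had 28, 17, 18 and 16 loops and was the only one of the 5 highest genes whose anchors held no other coding start. Its anchor over the most upstream start had 12, 6, 10 and 8 loops. The other, at chr9:120575517-120579744, lies beyond the 3′ end of the gene and had 17, 12, 9 and 9.

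Below these, Rpl13a had 74 loops, Rpl36 71, Rpl23 69, Rpl19 and Rpl35a 68 each, Rpl7 57 and Rpl23a 56. The Rpl23a loops all came from 1 anchor at chr11:78175432-78180076, beyond the 3′ end of the gene, which is also counted for Nek8 and Tlcd1. At the other end, Rpl15 and Rpl31 had 3 loops each, Rpl39 had 4, and Rpl10, whose protein completes the large subunit, had 7. The remaining 22 contacted large subunit genes lay between 7 and 45. The large subunit as a whole had a median of 30.0 loops and the small subunit 22.0.

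Among small subunit genes Rps18 stood first, with 38, 31, 27 and 31 loops in list order. Further down, Rps14 had 56 loops in all, Rps2 had 54 and Rps21 had 52. The Rps2 loops all came from 1 anchor at chr17:24722503-24725160, beyond the 3′ end of the gene. That anchor lies within 2 kb of a downstream start of Rps2 and is also counted for Ndufb10. The anchor over the most upstream Rps18 start, at chr17:33953352-33956643, had 75 loops and also holds starts of the glycosyltransferase gene B3galt4 and the vesicle tethering gene Vps52. Rps14 and Rps19, known from human marrow failure syndromes in which 1 copy is lost, had 56 and 47 loops. Rps6, the substrate of the S6 kinases, had 2, 2, 1 and 1 loops. Rpsa, which is also known as a laminin receptor, had 5, 5, 1 and 3. Rps20 had 4 loops in all, Rps29 6, Rps24 7, Rps3a1 and Rps12 10 each, and most others lay between 13 and 44.

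The P stalk genes were all contacted at modest numbers. Rplp0, the stalk base, had 9, 9, 4 and 8 loops in list order. Rplp2 had 8, 6, 3 and 4, and Rplp1 had 4, 2, 1 and 2. For each of the 3, HNF4G liver mets had the fewest loops, and the counts are too small for an order among the lists.

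**Figure D2:**
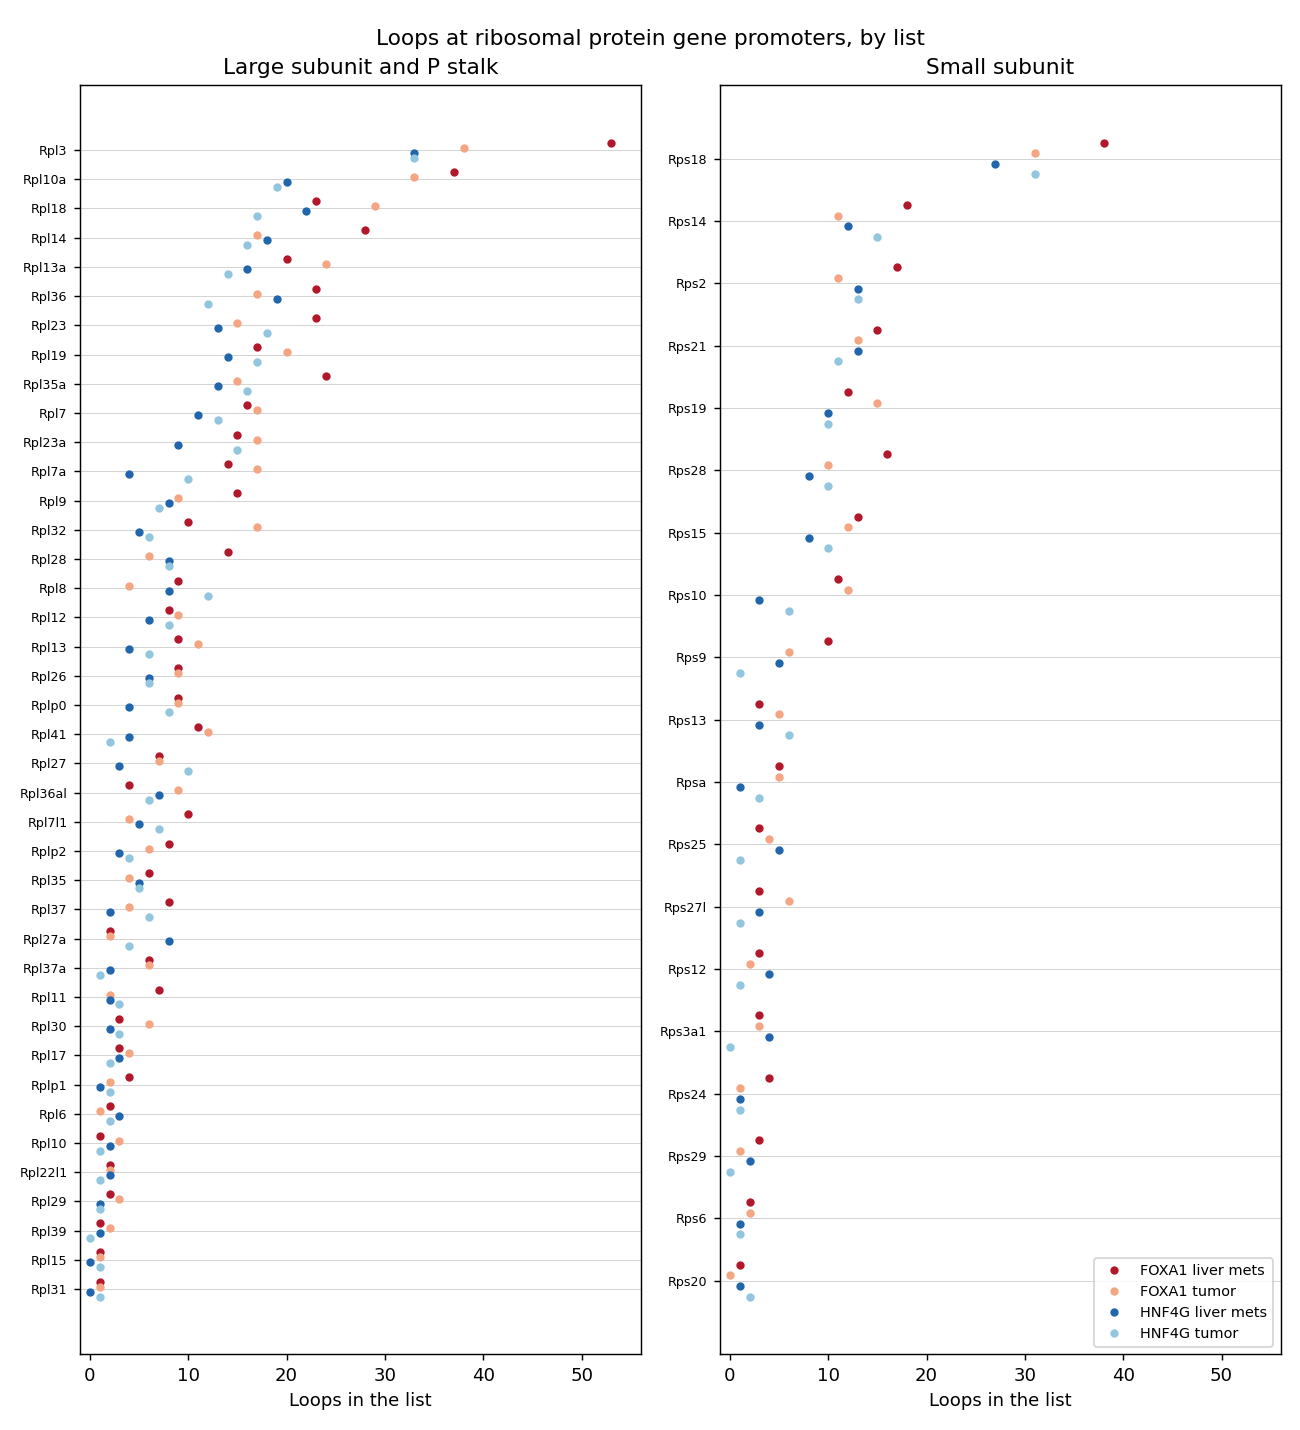
Loops at 59 of the 61 ribosomal protein genes with an anchor (rows, ordered by the sum) in each of the 4 lists (x axis, number of loops; points are shifted vertically by list so that equal counts can be seen). Rpl3, with 33 to 53 loops per list, and Rps18, with 27 to 38, lie apart from most genes.

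Nearly all contacted genes were contacted in both lines and with both factors. Of the 61 genes, 55 had at least 1 loop in every list. The 6 others were Rps3a1, Rps29, Rps20, Rpl39, Rpl31 and Rpl15, each with between 3 and 10 loops in all, and at such counts a list with no loop cannot be told from one with few. In list order, 61, 60, 59 and 58 members were contacted. The same counts were not taken over other contacted coding genes, so they do not set the members apart.

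The remaining 30 members had no anchor within 2 kb of a start in any list. In the small subunit they included Rps3, Rps4x, Rps7, Rps15a, Rps16, Rps23, Rps26, Rps27, Rps27a, Rps27rt and Rps12-ps3. In the large subunit they included Rpl4, Rpl5, Rpl21, Rpl22, Rpl24, Rpl34, Rpl36a, Rpl38, Rpl3l, Rpl10l, Rpl39l, Rpl9-ps1, Rpl9-ps6, Rpl10-ps3, Rpl36-ps4 and Rpl36a-ps1. Their nearest anchor lay a median of 18.1 kb from the closest start. For 6 of them it was within 5 kb, namely Rpl3l (2.66 kb), Rpl24 (2.86 kb), Rps27rt (3.07 kb), Rpl38 (3.54 kb), Rpl36-ps4 (3.74 kb) and Rps16 (4.06 kb), so whether they count as contacted depends on the 2 kb limit. It was over 50 kb away for another 6, and 2316 kb away for Rpl36a on the X chromosome. Rpl5, which with Rpl11 binds the regulator Mdm2 when ribosome assembly is disturbed, had its nearest anchor at 24.5 kb, whereas Rpl11 had 7, 2, 2 and 3 loops. Members without an anchor lay in sparser surroundings, with a median of 13.5 coding genes starting within 500 kb, against 22.0 for members with an anchor. In other coding genes the same medians were 15 and 16. Of 4 members on the X chromosome 2 had an anchor, Rpl10 and Rpl39, against 110 of 944 other X-linked coding genes (11.7%).

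Paralog pairs were compared next, because several ribosomal proteins have a second copy used in particular tissues. Rpl3 had 157 loops and its muscle paralog Rpl3l had no anchor. The anchor nearest to Rpl3l, 2.66 kb away, was the one counted for Rps2 and Ndufb10. Rpl10 had 7 loops and Rpl39 had 4, and their testis paralogs Rpl10l and Rpl39l had no anchor. In 3 pairs the paralog was contacted and the canonical gene was not. Rpl36al had 4, 9, 7 and 6 loops from an anchor shared with Mgat2, and Rpl36a had no anchor. Rps27l had 3, 6, 3 and 1 loops and Rpl22l1 had 2, 2, 2 and 1, whereas Rps27 and Rpl22 had no anchor. Rpl7 had 57 loops and Rpl7l1 had 26. Rps4x had no anchor, and no gene with the symbol Rps4l met the membership rule.

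The number of loops at a member went with features of the anchor and its surroundings. Of the 61 contacted members, 24 (39.3%) shared an anchor with the start of another coding gene, against 27.9% of other contacted coding genes. These 24 had a median of 49.5 loops, and the 37 members whose anchors held no other start had 16.0. In other coding genes the same medians were 27.0 and 22.0. Loops at a shared anchor cannot be assigned to 1 of its genes. Wide anchors had more loops in both sets. Member anchors under 2 kb wide had a median of 16.5 loops (28 anchors) and those of 6 kb or more had 71.0 (5 anchors), where other coding promoter anchors had 16.0 and 69.0. Between 2 and 3 kb the medians were 27.0 and 19.0, and between 3 and 4 kb 39.0 and 27.0. Members hosting snoRNA genes had an anchor in 24 of 30 and a median of 20.5 loops, and those without had 37 of 61 and 30.0. The 5 highest genes together held 324 of the 1344 distinct loops (24.1%).

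Whether looping at these promoters differed between liver mets and tumor was the comparison the study design set up. For FOXA1, the liver mets list held 666 member loops and the tumor list 573, which gave a ratio of 1.16 (exact interval 1.04 to 1.30). Other coding promoters had a ratio of 1.18 and the whole lists 1.21. For HNF4G the corresponding numbers were 430 and 455, which gave 0.945 (0.826 to 1.08), where other coding promoters had 0.976 and the whole lists 1.02. For both factors the ratio at other coding promoters lay within the interval of the members. Member loops made up 0.530%, 0.550%, 0.551% and 0.596% of the loops, in list order. The ratios were also taken over loops above a minimum deposited value, read here as the −log10 of an adjusted p. At 2 or higher the FOXA1 ratio was 0.963 (0.645 to 1.44), from 52 liver mets and 54 tumor loops, and other coding promoters had 1.35. At 4 or higher it was 1.75 (0.822 to 3.90), and other coding promoters had 1.62. The HNF4G ratio at 2 or higher was 1.14 (0.670 to 1.94), and other coding promoters had 0.936. At 4 or higher it was 0.778 (0.246 to 2.35), and other coding promoters had 0.948. These 4 intervals include 1 and also the ratios over all loops. FOXA1 loops outnumbered HNF4G loops at members by 1.26 in tumor (1.11 to 1.43) and 1.55 in liver mets (1.37 to 1.75), with 1.27 and 1.54 at other coding promoters. How far differences in depth between the libraries enter these ratios was not tested.

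Ratios of single genes lay on both sides of 1, each within counting error of it. Ratios of liver mets to tumor loops were taken with 1 added to each count, for genes with 20 or more loops in both lists of a factor together. For FOXA1, 9 of 27 members had a ratio of 1.5 or more (33.3%, where the background over 3836 coding genes was 17.6%), and 1 of 27 was lower by the same fold (3.70%, background 2.45%). The 9 genes included Rpl9, Rpl14, Rpl23, Rpl28, Rpl35a, Rps2, Rps14 and Rps28. Rpl28 had the highest ratio, with 14 liver mets and 6 tumor loops, and Rpl14 had 28 and 17. At the anchor over its most upstream start Rpl14 had 12 and 6, and at the one beyond its 3′ end 17 and 12. The Rpl28 loops came from 1 anchor that lies outside the gene and is also counted for Tmem238. The Rps2 loops also came from 1 anchor outside the gene, beyond its 3′ end. The lowest was Rpl32 with 10 and 17, followed by Rpl18 with 23 and 29 and Rps19 with 12 and 15. The median of the 27 ratios was 1.12, against 1.16 over all coding genes tested, so the larger share of high ratios was not accompanied by a higher middle.

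For HNF4G, 2 of 18 members reached 1.5 or more (11.1%, background 6.90%), and 1 of 18 was lower by the same fold (5.56%, background 12.4%). Rpl36 had the highest ratio, with 19 liver mets and 12 tumor loops, and Rpl18 had 22 and 17. The lowest were Rpl23a with 9 and 15, Rpl8 with 8 and 12, and Rpl23 with 13 and 18. The anchor counted for Rpl23a lies beyond the 3′ end of that gene. In 0 of the 27 genes for FOXA1 and 0 of the 18 for HNF4G did the exact interval of the unshifted ratio leave out 1. The ratio of Rpl28, the highest for FOXA1, had an interval of 0.842 to 7.41. Several of the genes share anchors or neighbouring anchors, and their ratios are not independent of each other.

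**Figure D3:**
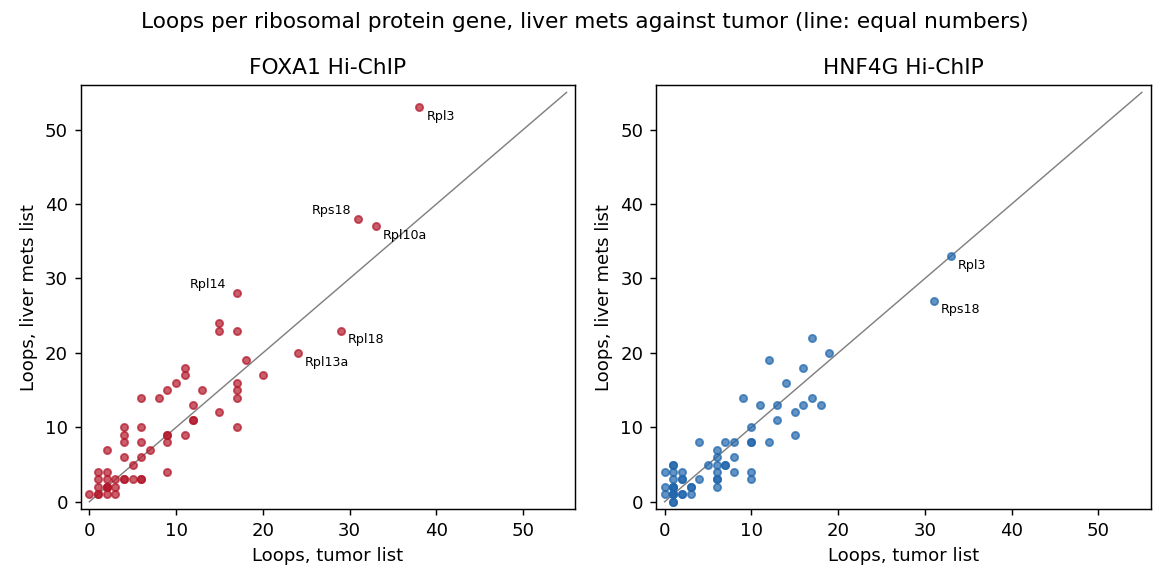
Loops per ribosomal protein gene in the tumor list (x axis) and the liver mets list (y axis) for FOXA1 and HNF4G, with 1 point per gene with an anchor and a line of equal numbers. Genes with 44 or more loops in both lists together are named; for FOXA1, Rpl3 (53 against 38) lies above the line and Rpl18 (23 against 29) below it, and for HNF4G Rpl3 (33 and 33) lies on it.

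The ratio was also followed over the span of the loop, the distance between anchor midpoints. For FOXA1 it was 0.929 below 20 kb, 1.15 from 20 to 50 kb, 1.03 up to 100 kb, 1.28 up to 200 kb, 1.25 up to 500 kb and 1.01 up to 1000 kb. Beyond that, up to 2000 kb, 71 liver mets and 44 tumor loops gave 1.61 (1.09 to 2.41), where other coding promoters had 1.38. For HNF4G the ratio lay between 0.928 and 1.05 in the other ranges, and between 500 and 1000 kb, 31 liver mets and 51 tumor loops gave 0.608 (0.376 to 0.968), where other coding promoters had 0.857. These were the only ranges of the 7 in which the interval of a factor left out 1, and in both the value at other coding promoters lay inside it.

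The partners of ribosomal protein promoters were more often coding promoters than those of other coding genes. Counting each promoter end of a loop once, 790 of 1355 ends (58.3%, Wilson interval 55.7 to 60.9) had a coding promoter at the far anchor, against 50.6% of 214400 ends at other coding promoters, a difference of 7.74 percentage points (Newcombe interval 5.08 to 10.3). The difference had the same direction in the 4 lists, with 56.2%, 59.5%, 60.4% and 63.0% for members in list order and 49.5%, 50.7%, 52.3% and 54.1% for the others. The lists share loops and anchors, so these are not independent. Ends with no annotated start at the far anchor made up 35.1% for members and 43.1% for other promoters, and ends that met only noncoding starts 6.57% and 6.34%.

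The surroundings of members were also richer in coding promoters. Within 1 Mb of the anchor, a mean of 52.4% of the other anchors were coding promoters for member ends and 46.6% for the other ends. When ends were grouped by this local share, the difference was smaller in each group than over all ends. Where 20 to 40% of the surrounding anchors were coding promoters, the far anchor was one for 38.3% of member ends and 35.5% of other ends. Where 40 to 60% were, the shares were 54.2% and 53.4%, and the intervals of both differences included 0. Where 60 to 100% were, they were 77.5% and 71.6%, a difference of 5.89 points (1.99 to 9.37). Within that group the mean local share was also higher for member ends, at 71.5% against 68.1%, so it was not matched there. In the group of 40 to 60% it was 49.4% and 49.7%. By span the difference was widest below 20 kb, at 17.2 points (7.15 to 25.9), and it was 10.1 points (4.68 to 15.2) from 200 to 500 kb. It was smallest from 50 to 100 kb, at 2.33 points, and above 1000 kb, at 1.11, with intervals that included 0.

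**Figure D4:**
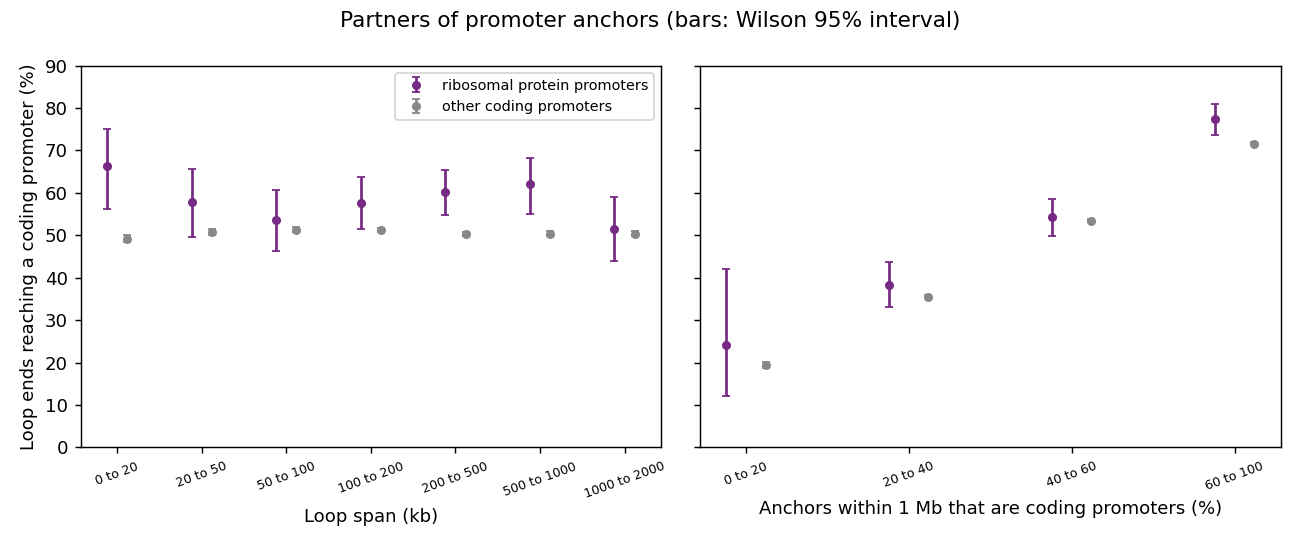
Percent of loop ends whose far anchor is a coding promoter (y axis) by loop span in kb (left) and by the share of anchors within 1 Mb that are coding promoters (right), for ribosomal protein promoters and other coding promoters, with Wilson 95% intervals. The members lie higher below 20 kb (66.3% against 49.2%). In the right panel the pairs are closest in the group of 40 to 60%, at 54.2% and 53.4%. In the group of 60 to 100% the members lie higher, at 77.5% against 71.6%, and their mean local share was also higher (71.5% against 68.1%).

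Contacts between ribosomal protein promoters were a small part of their loops, with another member anchor at the far side of 22 of the 1355 ends (1.62%). The members are scattered over the genome, and 20 pairs of their anchors lay within 2000 kb of each other, of which 11 were joined in at least 1 list. The same share was not taken for pairs of other coding promoter anchors, so a preference of members for each other cannot be read from it. Of these 11 loops, 4 joined anchors of 1 gene, namely Rpl3, Rpl14, Rps19 and Rps14, and 7 brought in starts of more than 1 member. Rpl23 and Rpl19 on chromosome 11, 245 kb apart, were joined in both HNF4G lists and in neither FOXA1 list, at values of 1.86 and 1.85. Rps9 and Rpl28 on chromosome 7, 1084 kb apart, were joined in both FOXA1 lists and in neither HNF4G list, at values of 1.87 and 1.91. The anchor counted for Rpl28 lies outside that gene, within 2 kb of its start, and is also counted for Tmem238. Rpl18 was joined to an anchor of Rpl13a 593 kb away in FOXA1 tumor alone, at a value of 3.71, and Rps28 to Rps18 130.3 kb away, also in FOXA1 tumor alone, at 2.22. A second loop from Rpl13a to Rpl18 and one from Rps29 to Rpl36al were likewise in FOXA1 tumor only. Values just under 2 are common among long loops of the FOXA1 lists. The value of 1.87 was carried by 98 of the 415 member loops of 100 kb or more in FOXA1 liver mets (23.6%), and 1.91 by 94 of 331 in FOXA1 tumor (28.4%).

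The loops with the highest values joined members to neighbouring genes of other kinds. Those below were chosen after their values were seen, except the Rpl7 loop, which was the only one at a member to reach the highest value in the files, 20. That loop ran from the anchor of Rpl7 and the retinol dehydrogenase gene Rdh10 at chr1:16104155-16111543 to one inside Stau2, an RNA-binding protein gene, at chr1:16226104-16230020. Rpl19 was joined to Lasp1, an actin-binding protein gene 220.4 kb away, in all 4 lists, at values of 6.55, 12.2, 1.84 and 7.58 in list order. The Lasp1 anchor was also joined to Rpl23, 24.4 kb away, in all 4 lists, at 2.89, 3.27, 1.95 and 1.99. The anchor of Rpl10a and Tead3 was joined to Fkbp5, a co-chaperone of the glucocorticoid receptor, 187 kb away, at 6.32, 6.79, 3.20 and 1.73.

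The anchor of Rpl23a, Nek8 and Tlcd1 was joined to that of Traf4, a signalling adaptor, 14.3 kb away, at 10.5, 11.2, 3.78 and 6.59 in list order. The Rpl18 anchor was joined to that of Car11 and the circadian factor gene Dbp, 11.3 kb away, at 4.89, 4.51, 11.2 and 1.92. It had 3 loops of 100 kb or more in all 4 lists, to Plekha4 (178 kb), to Emp3 and Ccdc114 (204 kb) and to Bax, a mediator of apoptosis (252 kb). The loop to Emp3 reached 8.32 with FOXA1 in liver mets, and 1.63, 1.80 and 1.77 in the other lists. The loop to Bax was the longest member loop found in all 4 lists and had values between 1.54 and 1.85. Rps18 was joined to the anchor of the chromatin reader gene Brd2 and of H2-DMa, 166 kb away, at values between 1.33 and 1.71. The commonest value of a list differs from list to list, so equal values in separate lists are not necessarily equal evidence.

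A smaller share of member loops than of loops at other coding promoters was long. The median span of the distinct loops was 211 kb (interval 195 to 243) against 240.2 kb, and 69.5% against 72.5% spanned 100 kb or more, a difference of -3.04 points (-5.56 to -0.624). Within single lists the difference in this share lay between -1.36 and -3.58 points, with intervals that included 0. The median spans were 158, 139, 134 and 137 kb for members and 178, 154, 127 and 147 kb for other coding promoters, in list order, so the direction turned in the HNF4G list of the liver mets line. It also turned among loops valued at 4 or higher, at 201 kb for members and 183 kb for the others. By gene, the median span of the highest 5 ran from 172 kb at Rps18 to 366 kb at Rpl10a.

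Loops of members were shared between lists about as often as those of other coding promoters. Of the 1344 distinct loops, 861 (64.1%) were in 1 list, 263 in 2, 143 (10.6%) in 3 and 77 (5.73%, Wilson interval 4.61 to 7.10) in all 4. At other coding promoters 66.0% were in 1 list and 5.49% in all 4, and the difference for all 4 lists was 0.235 points (-0.892 to 1.61). The share in 3 lists was 8.99% there, and the difference of 1.65 points had an interval of 0.106 to 3.42. Sharing fell with span in both sets, from 33.0% of member loops under 20 kb in all 4 lists (34.2% at other coding promoters) to 2.94% between 100 and 200 kb (3.75%). Over 500 kb none of the 367 member loops was in all 4 lists, where a count of 0 allows a share of up to 0.817% (3 counts).

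Between the lines, 245 FOXA1 loops were common to both, which was 42.8% of the member loops in tumor and 36.8% of those in liver mets (39.9% and 33.8% at other coding promoters). For HNF4G, 156 were common, 34.3% of tumor and 36.3% of liver mets loops (33.3% and 34.1%). The intervals of all 4 differences from other coding promoters included 0. Loops found in both lists of 1 factor and in no list of the other numbered 75 for FOXA1 and 29 for HNF4G. These were 5.58% and 2.16% of the distinct member loops, against 5.31% and 1.99% at other coding promoters. Those found with both factors in 1 line only numbered 43 in liver mets (3.20%, against 3.40%) and 38 in tumor (2.83%, against 2.65%). The intervals of all these differences included 0. Rps21, a small subunit gene, had 5 of its 24 distinct loops in all 4 lists. Rps18 had 11 of 71, the most of any member.

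**Figure D5:**
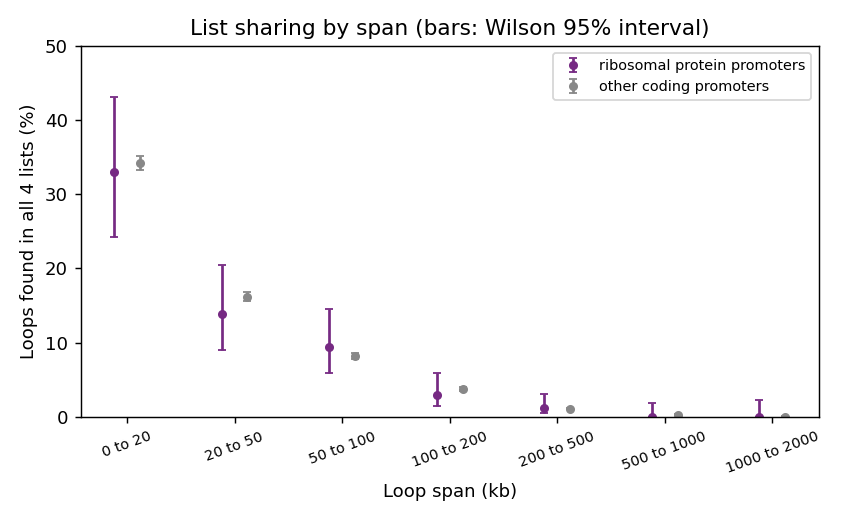
Percent of distinct loops found in all 4 lists (y axis) by loop span in kb (x axis) for ribosomal protein promoters and other coding promoters, with Wilson 95% intervals. Both fall together from 33.0% and 34.2% below 20 kb to 1.22% and 1.10% between 200 and 500 kb.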

How the data were processed

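Hi-ChIP was performed on 8 samples in 4 groups of 2 replicates. The submitters' processing notes name HiC-Pro 3.1.0 and mm10, and the study names DpnII digestion and hichipper for loop calling. How replicates were joined, and how many paired reads a loop needed, are not given in the sources used here. Each loop list gave anchor coordinates, an unnamed value, deposited by the authors and read from its tied values and its ceiling of 20 as the −log10 of an adjusted p, and a display score deposited by the authors, which followed from the value and was not used further.

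Loops were matched to GENCODE M21 starts within 2 kb with Python 3.11.15 and numpy 2.4.6. Coordinates count from 1. Shares had Wilson intervals, differences Newcombe intervals and ratios exact (Clopper-Pearson) intervals given the sum, from scipy 1.17.1. Other coding promoters were loops with no member anchor. Partner shares were counted per promoter end. The calculations were tested on simulated data with known answers. Named genes were the 5 with the most loops, those with no anchor, the 3 highest and lowest ratios per factor, fixed paralog pairs, and loops between members or with a value of 20. Other genes are named for their roles or were chosen after their values were seen. Certain genes are counted but not reported here by name. Members and lists were chosen with earlier results of these data known. Alternatives changed the distance, starts, minimum value, spans and gene set.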

Additional observations from a re-analysis of the deposited data

Results flagged for a closer look

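The liver mets to tumor ratio went opposite ways for FOXA1 and HNF4G over all ribosomal protein promoters, above 1 for FOXA1 (1.16) and below 1 for HNF4G (0.945). The FOXA1 ratio divided by the HNF4G ratio was 1.23 (95% interval from counting error 1.03 to 1.46), and at other coding promoters it was 1.21 (1.19 to 1.23). The HNF4G interval (0.826 to 1.08) included 1, and the whole HNF4G lists had a ratio of 1.02. Among loops valued at 2 or higher the ratios were the other way round, at 0.963 for FOXA1 and 1.14 for HNF4G. With 1 list per group, this opposition could not be tested against replicates.

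The factors also went opposite ways at 3 of the single genes named for their ratios. Rpl18 did so in the reverse sense, with fewer FOXA1 loops in liver mets (23 against 29) and more HNF4G loops (22 against 17), a ratio of ratios of 0.613 (0.265 to 1.41). Rpl23 had 23 against 15 FOXA1 loops and 13 against 18 HNF4G loops, which gave 2.12 (0.809 to 5.57). Rpl8 had 9 against 4 and 8 against 12, which gave 3.38 (0.769 to 14.8). All 3 intervals included 1, and these differences were not tested.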

How the results depend on the processing

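Of 63 values, 7 results under 9 alternatives, 43 stayed within the interval of the reported value, and 20 did not. The FOXA1 ratio, whose interval had left out 1, turned to 0.963 (0.645 to 1.44) at a value of 2 or more and was 1.75 (0.822 to 3.90) at 4 or more. The HNF4G ratio, whose interval included 1, was 1.14 (0.670 to 1.94) and 0.778 (0.246 to 2.35), and so also crossed 1 at 2 or more. The share of partners that were coding promoters was 49.3% with anchors over the start itself, 69.4% within 5 kb, 44.3% with the most upstream start only and 67.4% at a value of 2 or more. At other coding promoters it was 43.4%, 60.1%, 39.0% and 53.0% under the same settings, so members stayed higher. The share of genes with a loop was 39.6% at a value of 2 or more and 16.5% at 4 or more (29.1% and 11.7% in other genes). It was 45.1% with only anchors that held no other coding start, where other genes, not filtered in this way, had 49.1%. The median number of loops was 2.00 at a value of 2 or more and 2.00 at 4 or more, equal to other genes in both cases. With only anchors that held no other coding start it was 17. The median span was 193 kb at a value of 2 or more (197 kb at other coding promoters), 246 kb for loops of 20 kb or more (266 kb) and 175 kb for loops under 1000 kb (190.1 kb). At 4 or more the comparison turned, with 201 kb for members and 183 kb for the others. The share in all 4 lists was 2.26% at a value of 2 or more (2.58% at other coding promoters) and 2.94% at 4 or more (3.81%). It was 3.75% for loops of 20 kb or more (3.74%). With own anchors it was 3.80%, where other coding promoters, not filtered in this way, had 5.49%. Beside both minimum values, the FOXA1 interval reached below 1 with anchors over the start (0.996), with own anchors (0.975) and for loops under 1000 kb (0.999). The cause of these shifts was not tested. No paired analysis was possible because both replicates of a group were combined in 1 list, and for the same reason no replicate could be left out.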

Other observations

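The translation factors that accompany the ribosome spread about as widely as the contacted ribosomal proteins, with quartiles of 10.5 and 53.5 loops against 13 and 52. Only Eef2, with 188 loops, lay above the highest member, with 157. Among the subunits of elongation factor 1, which delivers charged transfer RNA, Eef1d had 39, 35, 26 and 27 loops in list order and Eef1g had 18, 20, 14 and 18, whereas Eef1a1 had 2, 3, 1 and 2 and Eef1b2 had 2, 1, 2 and 1. Eif4b, which aids scanning, had 64 loops in all, Naca, part of the nascent chain complex, had 43 and its partner Btf3 had 18. Pabpc1, the poly(A)-binding protein, had 38, and the growth-related genes Tpt1 and Npm1 had 13 each.

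In the ribosome biogenesis list Ubtf had 51, 42, 38 and 37 loops and Bop1, a large subunit assembly factor, had 39, 23, 17 and 24. No anchor was present at Fbl, Nop58, Nop2, Dkc1 or Polr1b. Between liver mets and tumor, the HNF4G ratio was 1.09 for the mitochondrial ribosomal proteins (0.954 to 1.26) and 1.09 for the biogenesis list (0.834 to 1.43), against 0.945 (0.826 to 1.08) for the cytosolic ribosomal proteins. The intervals overlap, and the difference was not tested. The FOXA1 ratio was 1.16 in all 3 groups.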
